A study of Mus musculus with 8 samples.

Results

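The genes described here encode laminin chains, nidogens and the heparan sulfate proteoglycans perlecan and agrin, which build the basement membrane around vessels and muscle fibres. They were chosen by name: Lama2, Lama3, Lama4, Lama5, Lamb2, Lamc1, Nid1, Nid2, Hspg2 and Agrn, 10 of the 37979 genes listed in the study. The choice was made with earlier results of these data known, so counts set beside shares of all genes are a description. All 10 were found under these symbols and none was listed at 0 in any library.

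To find genes that mark muscle pericytes, the study sequenced bulk RNA from pericytes and smooth muscle cells (SMCs) of mouse hindlimb muscle. Both groups came from Ai14+/-;SM22α-Cre+ mice aged 3 to 4 months, so both carry the same tdTomato reporter and Cre transgene. Pericytes were sorted as PDGFRβ+tdTomato- cells and SMCs as PDGFRβ+tdTomato+ cells, in each case after cells stained for CD31 or CD45 and dead cells had been gated out. There were 4 libraries of each group, replicates 1 to 4, each of about 60000 cells combined from multiple sorts, so a library is a pool and not a single animal. The SMC group rests on where the SM22α promoter has driven Cre: a PDGFRβ+ cell that never switched on tdTomato falls in the pericyte gate whatever its type, and a cell that switched it on falls in the SMC gate. Levels are FPKM, the fragments of a gene divided by its transcript length and by the mapped total of the library, which allow genes of different length to be set side by side. The number of reads behind a value is unknown. Summed FPKM ran from 690247 to 1190435 in pericyte libraries and from 656405 to 737839 in SMC libraries, and relative depth, read from the lowest values, from 0.865 to 1.05 and from 0.992 to 1.06. Pericyte replicate 2 stood apart, with the highest sum and the lowest relative depth, and the next highest sum was 782014 in pericyte replicate 4.

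The markers of the sorted cells were checked before the genes of interest. Of 10 pericyte markers, 2 passed the test and both were higher in SMCs (6 at an unadjusted p below 0.05, and 5 passing when low genes were filtered), and the list's summed level was 55.0 to 134 FPKM in pericyte libraries and 140 to 469 FPKM in SMC libraries. Of all genes tested, 11.2% passed as higher in SMCs and 10.6% as higher in pericytes. Among genes averaging 1 FPKM or more, 19.5% passed as higher in SMCs, close to the 20% of this list. The fit with low genes filtered called 44.8% of all its genes in either direction. Of 10 smooth muscle markers, 0 passed the test (limma, with 3 higher in SMCs at an unadjusted p below 0.05 and 3 passing when low genes were filtered), with summed levels of 614 to 1910 FPKM in pericyte libraries and 1797 to 5868 FPKM in SMC libraries. Pdgfrb itself, on which both gates rest, was at 9.70 ± 6.59 FPKM in pericytes and 47.4 ± 37.2 FPKM in SMCs (SD, n = 4 each, limma q = 0.0973, or 0.0272 when low genes were filtered and 0.00104 with the replicate split described next as a covariate), and Myh11, the smooth muscle myosin heavy chain, at 39.9 ± 47.0 and 131 ± 157 FPKM (limma q = 0.577). Markers of other cell types also moved with the groups, those of CD45+ and CD31+ cells, which the gate should remove, and those of fibroblasts, which it does not address. Of 12 leukocyte markers, 7 passed and were higher in pericyte libraries (summed level 1936 to 4900 FPKM against 339 to 1759 FPKM), among them Ptprc, the gene of CD45. Of 12 endothelial markers, 10 passed and were higher in SMC libraries (741 to 2004 FPKM against 152 to 265 FPKM), among them Pecam1, the gene of CD31. Of 10 fibroblast markers, 9 passed and were higher in SMC libraries (5628 to 8111 FPKM against 712 to 996 FPKM), among them Pdgfra. The remaining fibroblast marker, Dpp4, named after its value was seen, was lower in SMCs (-1.11, limma q = 0.0622, or 0.0238 when low genes were filtered). No marker of these 3 lists was at 0 in any library. Libraries also stood apart within the groups: the second principal component (16.2% of the variance, after 64.8% on the component that separated pericytes from SMCs) put replicates 1 and 2 of both groups on one side and replicates 3 and 4 on the other. All 8 libraries carry the same batch label in their sample records, so this split is one seen in the data and not a labelled batch, and what set it was not tested.

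A laminin is a trimer of an α, a β and a γ chain that is assembled inside the cell, secreted, and joined to other laminins to form a sheet at the cell surface. The α chain carries the sites that integrins and dystroglycan bind: α2 is the chain of muscle fibre basement membranes, α4 and α5 are the chains of vessel walls, and α3 is best known from epithelia. The β2 and γ1 chains are shared by several trimers. Nidogens link laminin to the collagen IV network, and perlecan and agrin bind laminin, nidogen and growth factors through their protein cores and heparan sulfate chains. Mural cells, endothelial cells and fibroblasts all contribute to vascular basement membranes.

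All 10 genes had a higher mean in SMCs than in pericytes, and 6 of them passed the test: Lama2, Lama4, Lama5, Nid1, Nid2 and Agrn. The count fell to 3 when SMC replicate 4, pericyte replicate 1 or pericyte replicate 3 was left out, with Lama2, Lama4 and Nid1 remaining. The test was limma on log2(FPKM + 1), on which fold changes come out too small where FPKM is low, with Benjamini-Hochberg adjustment over 27414 genes, and a gene passed with an adjusted p (q) below 0.05. Over all genes tested, 11.2% passed as higher in SMCs and 10.6% as higher in pericytes (21.8% in either direction). Lama2, Nid1 and Nid2 also differed by more than 2 on the log2 scale, as did 2.66% of all genes in this direction. In 6 of the 10, the same 6, every SMC library lay above every pericyte library, which was so for 12.5% of all genes. The median difference of the 10 genes was 1.69, and that of all genes tested was -0.02. These are shares of all genes, low ones included: among the 13612 genes averaging 1 FPKM or more, 19.5% passed as higher in SMCs and 20.8% had every SMC library on top. In bulk RNA, more cells of a type in a library and more RNA per cell cannot be told apart, and what the endothelial and fibroblast markers above contribute to these differences was not tested.

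**Figure D1:**
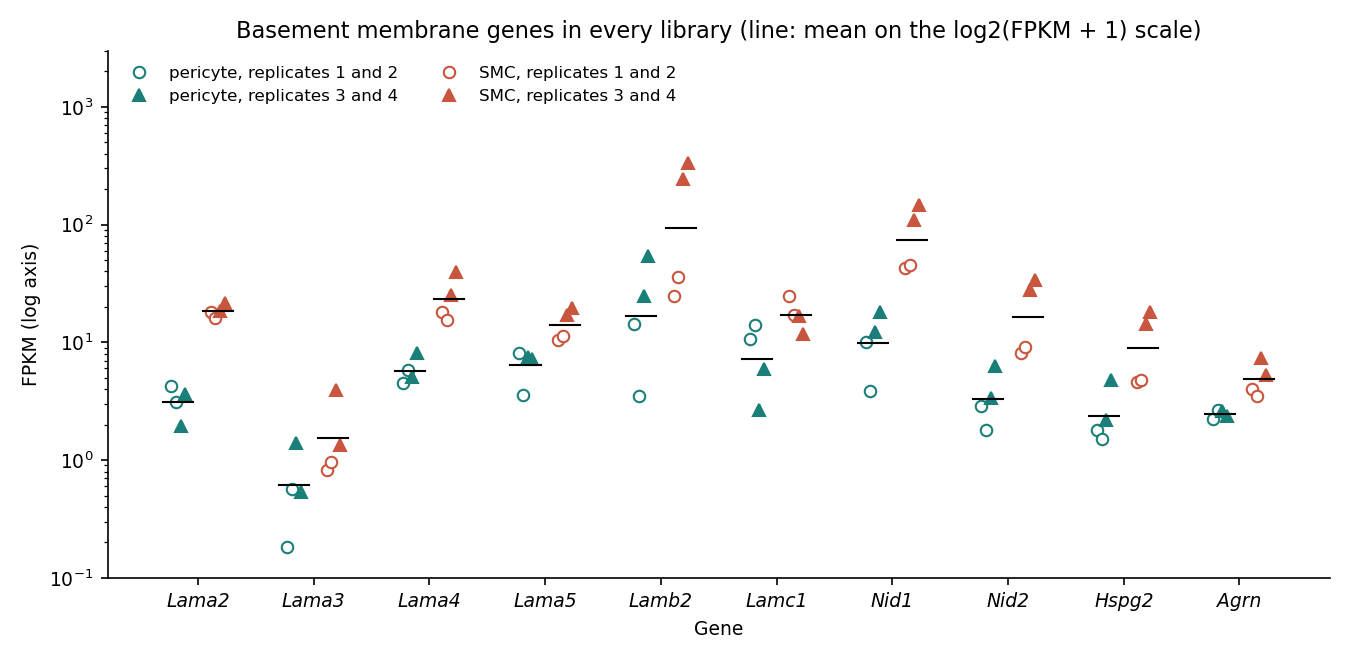
FPKM (log axis) of the 10 genes in each pericyte library (green) and SMC library (red), with open circles for replicates 1 and 2, filled triangles for replicates 3 and 4 and a line at the mean of log2(FPKM + 1). Lama2 stayed between 1.95 and 4.23 FPKM in pericytes and between 16.3 and 21.7 FPKM in SMCs, whereas Lamb2 spanned 24.8 to 334 FPKM within the SMC libraries alone.

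The start regions of 4 of the genes are printed here because these genes behaved differently among libraries: Lama2 separated the groups with the smallest spread, while Nid1, Lamb2 and Hspg2 moved together among libraries of one group. Each sequence runs from 250 bases before to 50 bases after the annotated start of the gene, on the gene's own strand, from RefSeq (GRCm38.p6). A promoter entry was matched for 6 of the 10 genes. Capitals mark matches to the GC box, GGGCGG on either strand, and to the CArG box, the serum response factor element of smooth muscle genes.
Lama2, chr10:27616893-27617192, minus strand: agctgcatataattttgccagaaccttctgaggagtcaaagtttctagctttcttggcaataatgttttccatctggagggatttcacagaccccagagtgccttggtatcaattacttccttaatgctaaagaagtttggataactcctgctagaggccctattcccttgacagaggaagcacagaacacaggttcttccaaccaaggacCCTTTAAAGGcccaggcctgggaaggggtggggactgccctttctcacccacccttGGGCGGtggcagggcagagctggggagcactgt
Nid1, chr13:13437352-13437651, plus strand: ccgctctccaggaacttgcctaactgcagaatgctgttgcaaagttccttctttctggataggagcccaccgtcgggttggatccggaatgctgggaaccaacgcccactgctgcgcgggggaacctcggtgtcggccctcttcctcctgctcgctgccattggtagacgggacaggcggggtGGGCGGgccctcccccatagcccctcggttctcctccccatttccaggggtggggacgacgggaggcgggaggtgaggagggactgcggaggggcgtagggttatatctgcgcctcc
Lamb2, chr9:108479612-108479911, plus strand: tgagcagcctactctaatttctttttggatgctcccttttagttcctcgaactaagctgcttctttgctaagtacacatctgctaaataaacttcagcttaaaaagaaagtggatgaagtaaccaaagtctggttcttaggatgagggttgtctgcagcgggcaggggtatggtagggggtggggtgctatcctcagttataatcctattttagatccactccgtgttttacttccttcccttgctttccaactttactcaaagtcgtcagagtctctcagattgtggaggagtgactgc
Hspg2, chr4:137468553-137468852, plus strand: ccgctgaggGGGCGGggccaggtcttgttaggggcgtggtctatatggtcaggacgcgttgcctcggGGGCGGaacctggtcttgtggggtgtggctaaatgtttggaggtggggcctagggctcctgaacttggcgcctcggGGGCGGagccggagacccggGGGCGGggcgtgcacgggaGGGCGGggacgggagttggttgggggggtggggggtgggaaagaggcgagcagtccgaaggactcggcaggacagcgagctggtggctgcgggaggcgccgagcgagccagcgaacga

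The Lama2 start region held 1 GC box and 1 CArG box match, with a single CpG (1) and 50.3% G+C. The Nid1 region held 1 GC box, 20 CpGs and 64.7% G+C, and the Hspg2 region 5 GC boxes, 27 CpGs and 70.3% G+C. The Lamb2 region held 0 GC boxes, 4 CpGs and 44% G+C, so the 3 genes that moved together did not share a base composition here. Over 32851 RefSeq start regions of the same length, 35.7% held a GC box and 1.63% a CArG box, and the median region had 7 CpGs and 52.7% G+C. TATAAA (13.6% of start regions) and the AP-1 site, TGACTCA or TGAGTCA (5.2%), searched on both strands, were not found in any of the 4. These are matches of letters only.

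Of the α chains, Lama2, Lama4 and Lama5 were higher in SMCs and Lama3 was low in both groups. Lama2 (ENSMUSG00000019899, at chr10:26701094-27336748, minus strand, NCBI Build 37) encodes the α2 chain, whose loss causes a congenital muscular dystrophy. Its level was 4.23, 3.13, 1.95 and 3.62 FPKM in pericyte replicates 1 to 4 and 18.3, 16.3, 18.4 and 21.7 FPKM in SMC replicates 1 to 4. The SMC libraries lay close together and the lowest of them was well above the highest pericyte library. The difference was 2.24 (SE 0.18, 95% confidence interval 1.81 to 2.67; limma q = 0.000226), and the mean FPKM was 5.77-fold higher in SMCs. With any 1 library left out, q did not exceed 0.00133.

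Lama4 (ENSMUSG00000019846, at chr10:38685321-38829994, plus strand, NCBI Build 37) encodes the α4 chain, found in the basement membranes of endothelium and of smooth muscle. Its level was 4.52, 5.87, 5.05 and 8.11 FPKM in pericyte replicates 1 to 4 and 18.2, 15.5, 25.3 and 39.9 FPKM in SMC replicates 1 to 4. Replicate 4 was the highest library in both groups, and the groups did not overlap. The difference was 1.84 (SE 0.30, 95% interval 1.13 to 2.55; limma q = 0.00475), a 4.2-fold higher mean FPKM, and q stayed at or below 0.0170 with any 1 library left out.

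Lama5 (ENSMUSG00000015647, at chr2:179911078-179960564, minus strand, NCBI Build 37) encodes the α5 chain, the other vascular α chain. Its level was 8.16, 3.60, 7.55 and 7.23 FPKM in pericyte replicates 1 to 4 and 10.5, 11.3, 16.9 and 19.7 FPKM in SMC replicates 1 to 4. The groups did not overlap, but the highest pericyte library and the lowest SMC library were close. The difference was 1.04 (SE 0.28, 95% interval 0.37 to 1.70; limma q = 0.0389), a 2.20-fold higher mean FPKM. The call rested on several libraries: q was 0.0539, 0.0994 and 0.0919 without SMC replicate 2, 3 or 4 and 0.0514, 0.0656 and 0.0670 without pericyte replicate 1, 3 or 4. With a trend on transcript length and G+C content removed, the difference was 0.32 (limma q = 0.170), and with libraries rescaled to a common sum (TPM) it was 1.27 (limma q = 0.0652). Within replicates 1 and 2 it was 0.87 (limma q = 0.292).

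Lama3 (ENSMUSG00000024421, at chr18:12492533-12741522, plus strand, NCBI Build 37) encodes the α3 chain, which in skin pairs with β3. Its level was 0.181, 0.564, 1.41 and 0.540 FPKM in pericyte replicates 1 to 4 and 0.820, 0.965, 3.92 and 1.36 FPKM in SMC replicates 1 to 4. Replicate 3 was the highest in both groups, and the groups overlapped. The difference was 0.65 (95% interval -0.19 to 1.49, limma q = 0.284). It was 0.33 without SMC replicate 3 (limma q = 0.49) and 0.09 with the length and G+C trend removed (limma q = 0.843). The partner chain Lamb3 was also highest in replicate 3 of each group, at 4.90 FPKM in pericyte replicate 3 and 5.95 FPKM in SMC replicate 3, with the other 6 libraries between 0.172 and 0.944 FPKM.

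Within a library the α chains can be compared as shares of their summed FPKM, which library scaling does not change. In pericytes, Lama5 held 39.9 ± 9.68%, Lama4 36.1 ± 8.48%, Lama2 19.8 ± 5.75% and Lama3 4.24 ± 3.34% (SD, n = 4). In SMCs, Lama4 held 40.2 ± 5.60%, Lama2 32.5 ± 5.98%, Lama5 24.4 ± 1.91% and Lama3 2.90 ± 2.12% (SD, n = 4). The Lama2 share was 12.2 to 24.8% in pericyte libraries and 26.3 to 38.2% in SMC libraries, with no overlap. The Lama5 share went the other way, from 27.4 to 47.7% in pericytes to 22.0 to 26.2% in SMCs, also with no overlap, although its level was higher in SMCs. The Lama4 share overlapped, at 26.4 to 44.6% and 35.3 to 48.2%. The mean Lama3 share was 2.7% in pericytes without pericyte replicate 3 and 1.85% in SMCs without SMC replicate 3. Lama1, the α chain of early embryos, was listed at 0 in the 4 pericyte libraries and did not exceed 0.0298 FPKM in SMCs.

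**Figure D2:**
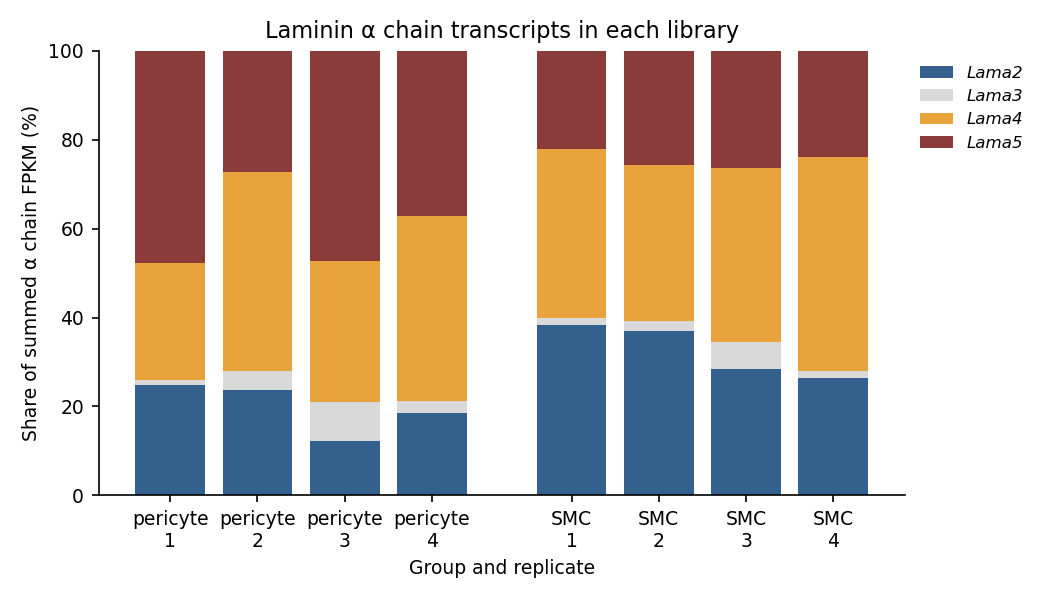
Stacked bars of the share (%) of summed laminin α chain FPKM held by Lama2, Lama3, Lama4 and Lama5 in each library; Lama1 held at most 0.0462%. The Lama2 share was larger and the Lama5 share smaller in each SMC library than in any pericyte library.

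The β2 and γ1 chains, which complete most of these trimers, did not pass the test as stated above, and their calls changed with the processing. Lamb2 (ENSMUSG00000052911, at chr9:108382193-108392861, plus strand, NCBI Build 37) encodes β2. Its level was 14.2, 3.53, 24.7 and 53.95 FPKM in pericyte replicates 1 to 4 and 24.8, 36.2, 245.7 and 334 FPKM in SMC replicates 1 to 4. It was the gene of the 10 with the highest mean in both groups and with the widest spread among replicates. Replicates 3 and 4 were above replicates 1 and 2 in both groups, and pericyte replicate 4 was above SMC replicates 1 and 2. The difference was 2.42, larger than that of Lama2, but with an SE of 1.10 (95% interval -0.17 to 5.0; limma q = 0.185). It was 1.90 within replicates 1 and 2 (limma q = 0.215) and 2.94 within replicates 3 and 4 (limma q = 0.0281), and passed over all 8 libraries with this split as a covariate (limma q = 0.0113).

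Lamc1 (ENSMUSG00000026478, at chr1:155066052-155179916, minus strand, NCBI Build 37) encodes γ1, the γ chain of most laminins. Its level was 10.7, 14.1, 2.68 and 5.90 FPKM in pericyte replicates 1 to 4 and 24.5, 17.2, 16.8 and 11.9 FPKM in SMC replicates 1 to 4. It was lower in replicates 3 and 4 than in replicates 1 and 2 in both groups, the opposite of Lamb2, and SMC replicate 4 was below pericyte replicate 2. The difference was 1.14 (SE 0.45, 95% interval 0.08 to 2.20; limma q = 0.129). It passed when only genes that reached 1 FPKM in 4 or more libraries were tested (limma q = 0.0494), with TPM scaling (1.40, limma q = 0.0451) and with replicates 1 and 2 against 3 and 4 as a covariate (limma q = 0.0317). The difference was 0.68 with the length and G+C trend removed (limma q = 0.375) and 0.76 without pericyte replicate 3 (limma q = 0.198).

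The nidogens were both higher in SMCs. Nid1 (ENSMUSG00000005397, at chr13:13529869-13604542, plus strand, NCBI Build 37) encodes nidogen-1, whose globular ends bind the laminin γ1 chain and collagen IV. Its level was 10.04, 3.83, 12.3 and 18.25 FPKM in pericyte replicates 1 to 4 and 43.2, 45.1, 109 and 146 FPKM in SMC replicates 1 to 4. The groups did not overlap, and in both groups replicates 3 and 4 were above replicates 1 and 2. The difference was 2.81, the largest of the 10 (SE 0.56, 95% interval 1.5 to 4.11; limma q = 0.0106), a 7.71-fold higher mean FPKM. It passed with any 1 library left out (limma q at most 0.0329), and was 2.63 within replicates 1 and 2 (limma q = 0.0600) and 2.99 within replicates 3 and 4 (limma q = 0.0122).

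Nid2 (ENSMUSG00000021806, at chr14:20570479-20631009, plus strand, NCBI Build 37) encodes nidogen-2, a homologue with overlapping binding partners. Its level was 2.86, 1.79, 3.34 and 6.25 FPKM in pericyte replicates 1 to 4 and 8.16, 9.21, 27.9 and 34 FPKM in SMC replicates 1 to 4. The order of the libraries was like that of Nid1, with replicates 3 and 4 on top in both groups. The difference was 2.03 (SE 0.53, 95% interval 0.79 to 3.27; limma q = 0.0312), a 5.56-fold higher mean FPKM. It did not pass without SMC replicate 3 or 4 (limma q = 0.0794 and 0.0669) or without pericyte replicate 1, 2 or 3 (limma q = 0.0745, 0.0659 and 0.0719).

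Of the proteoglycans, Agrn passed with a small difference and Hspg2 missed the threshold with a larger one. Hspg2 (ENSMUSG00000028763, at chr4:137024634-137126545, plus strand, NCBI Build 37) encodes perlecan, the main heparan sulfate proteoglycan of vascular basement membranes. Its level was 1.80, 1.504, 2.21 and 4.80 FPKM in pericyte replicates 1 to 4 and 4.63, 4.82, 14.5 and 18.0 FPKM in SMC replicates 1 to 4. The groups overlapped through a single pair, pericyte replicate 4 and SMC replicate 1. The difference was 1.55 (SE 0.49, 95% interval 0.40 to 2.70; limma q = 0.0633), a 4.06-fold higher mean FPKM. It passed without SMC replicate 1 (1.82, limma q = 0.0481), within replicates 1 and 2 (1.11, limma q = 0.0294), within replicates 3 and 4 (1.99, limma q = 0.0361) and with that split as a covariate (limma q = 0.00537). Hspg2 also passed when low genes were filtered (limma q = 0.0181), with a pseudocount of 0.1 (limma q = 0.0443) and with quantile scaling (limma q = 0.0413). TPM scaling (limma q = 0.0507) and an intensity trend (limma q = 0.0527) left it short of the threshold. With the length and G+C trend removed the difference was 0.74 (limma q = 0.0661), and with 1 library left out q reached 0.149.

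Agrn (ENSMUSG00000041936, at chr4:155539399-155571536, minus strand, NCBI Build 37) encodes agrin, which from the motor nerve clusters acetylcholine receptors through LRP4 and MuSK and elsewhere is a basement membrane proteoglycan. Its level was 2.23, 2.65, 2.59 and 2.39 FPKM in pericyte replicates 1 to 4 and 4.005, 3.51, 7.30 and 5.31 FPKM in SMC replicates 1 to 4. The pericyte libraries were nearly level, the smallest spread of the 10 genes in that group, and every SMC library was above them. The difference was 0.76 (SE 0.19, 95% interval 0.32 to 1.2; limma q = 0.0256), a 2.04-fold higher mean FPKM. It did not pass without SMC replicate 4 (limma q = 0.0681) or without pericyte replicate 1, 3 or 4 (limma q = 0.0656, 0.0572 and 0.0606), nor with an intensity trend (limma q = 0.0641), within replicates 1 and 2 (0.47, limma q = 0.144) or with the length and G+C trend removed (0.26, limma q = 0.368).

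**Figure D3:**
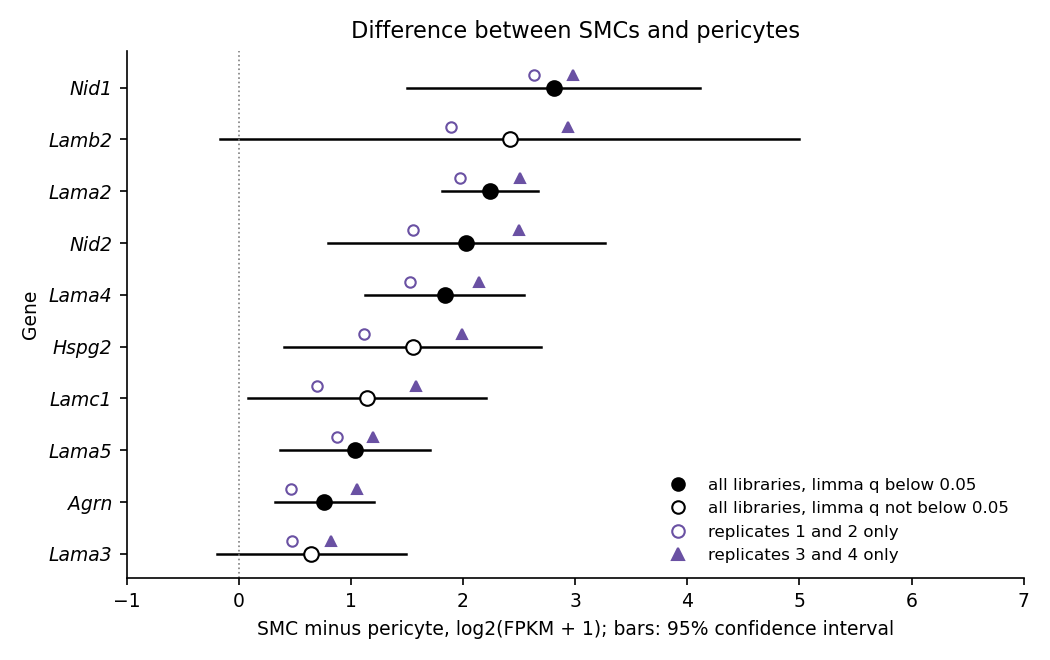
Difference between SMCs and pericytes in mean log2(FPKM + 1) for the 10 genes, with the 95% confidence interval over all 8 libraries (filled circle where limma q is below 0.05), and the difference within replicates 1 and 2 (small open circle) and within replicates 3 and 4 (triangle). All 10 differences lie above 0, and in each gene the difference within replicates 3 and 4 is the larger of the pair.

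The levels of the genes were then ordered within each group on the log2(FPKM + 1) scale. In pericytes the order was Lamb2 (4.14), Nid1, Lamc1, Lama5, Lama4, Nid2, Lama2, Agrn, Hspg2 and Lama3 (0.69). Only 2 of the 9 pairs of neighbours in it kept their order in each library. These were Lama4 above Nid2, whose ranges overlapped, and Hspg2 above Lama3, whose ranges did not meet. In SMCs the order was Lamb2 (6.56), Nid1 (6.24), Lama4 (4.60), Lama2 (4.29), Lamc1, Nid2, Lama5, Hspg2, Agrn and Lama3 (1.34). Lamb2 and Nid1 overlapped with each other, and the Nid1 range lay wholly above that of Lama4. The next genes from Lama4 to Lama5 overlapped, and Lama5, Hspg2, Agrn and Lama3 followed in the same order in each SMC library.

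To ask whether partners of one structure differed in step, 5 ratios were taken within each library and compared between groups by a two-sided exact permutation test over 70 assignments, for which the smallest p is 0.0286. Each log2 ratio is here a difference of log2(FPKM + 1) values, which departs from the log2 ratio of FPKM where levels are low. The log2 ratio of Nid1 to Nid2 was 1.33 ± 0.37 in pericytes and 2.11 ± 0.15 in SMCs (SD, n = 4), higher in every SMC library (exact permutation p = 0.0286, or 0.143 adjusted over the 5 ratios). The ratio of Lama4 to Lama5 was -0.13 ± 0.60 and 0.68 ± 0.24 (exact permutation p = 0.0857, adjusted 0.214); without pericyte replicate 2, whose ratio of 0.58 lay among those of SMCs, the difference was 1.03 in place of 0.80 (exact permutation p = 0.0286). The remaining ratios did not reach an unadjusted 0.05 either. The difference was 0.79 for Hspg2 to Agrn (exact permutation p = 0.143), 0.40 for Lama2 to Lama4 (p = 0.229) and -0.57 for Lamb1 to Lamb2 (p = 0.343). With a pseudocount of 0.1 in place of 1, the difference for Nid1 to Nid2 was 0.63 in place of 0.78. It was then 0.85 for Lama4 to Lama5, 0.92 for Hspg2 to Agrn, 0.55 for Lama2 to Lama4 and -0.46 for Lamb1 to Lamb2. After adjustment, 0 of the 5 ratios passed, which says little: a single ratio at the smallest p cannot adjust below 0.143, and 3 of the 5 would have to reach it.

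Replicates of the same group differed in these genes along the split seen on the second component. Replicates 3 and 4 were above replicates 1 and 2 in both groups for 4 of the 10 genes, Lamb2, Nid1, Nid2 and Hspg2 (8.46% of all genes tested, and 15.5% of those averaging 1 FPKM or more). Lamc1 was the 1 gene below in both groups (12.9% and 16.4% of the same sets of genes). For Lamb2 the mean of replicates 3 and 4 was 2.18 above that of replicates 1 and 2 in pericytes and 3.22 in SMCs, beside 2.42 between the groups. The corresponding values were 1.13 and 1.49 for Nid1, 0.77 and 1.72 for Nid2, and 0.71 and 1.58 for Hspg2. In Lamc1 they were -1.40 and -0.51, and in Lama2 -0.33 and 0.20. Lama2, Lama4, Lama5, Lama3 and Agrn thus did not separate the replicates in both groups. In SMCs, however, replicates 3 and 4 averaged higher by 0.88 for Lama4, 0.85 for Lama3, 0.70 for Lama5 and 0.61 for Agrn. The same values in pericytes were 0.27, 0.50, 0.37 and 0.02. The median over genes averaging 1 FPKM or more was -0.04 in SMCs and -0.05 in pericytes.

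**Figure D4:**
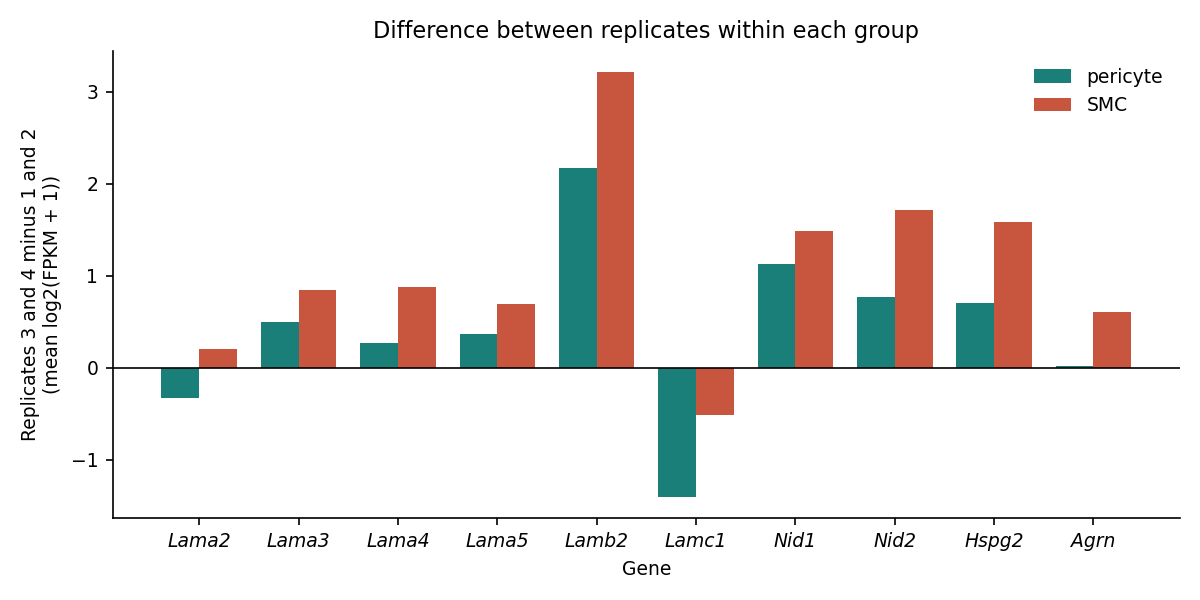
Mean log2(FPKM + 1) of replicates 3 and 4 minus that of replicates 1 and 2 for each gene, in pericytes (green) and SMCs (red), with 2 libraries in each mean and therefore no error bar. Lamb2, Nid1, Nid2 and Hspg2 are positive in both groups, up to 3.22 for Lamb2 in SMCs, and Lamc1 is negative in both.

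Several other quantities followed the same split. The summed endothelial markers were at 741 and 897.8 FPKM in SMC replicates 1 and 2 and at 1736 and 2004 FPKM in SMC replicates 3 and 4, and the pericyte markers at 140 and 144 FPKM against 345 and 469 FPKM. Smooth muscle markers were at 1797 and 2075 FPKM against 3517 and 5868 FPKM in the same libraries, and fibroblast markers at 6243 and 5628 FPKM against 7189 and 8111 FPKM. In pericyte libraries the pericyte markers followed the split (55.0 and 76.5 FPKM against 87.2 and 134 FPKM), while the endothelial markers (190 and 175 FPKM against 152 and 265 FPKM) and the smooth muscle markers (753 and 1910 FPKM against 614 and 1797 FPKM) did not. Fibroblast markers went the other way in pericyte libraries (982 and 996 FPKM against 712 and 776 FPKM). Schwann and perineurial markers followed the split in both groups, at 209 and 155 FPKM against 731 and 605 FPKM in pericytes and at 166 and 142 FPKM against 429 and 406 FPKM in SMCs. Leukocyte markers ran against it in SMCs (1427 and 1759 FPKM against 846 and 339 FPKM) and not in pericytes (2103 and 4900 FPKM against 3551 and 1936 FPKM). Across the 12822 genes that average 1 FPKM or more and have a transcript length, the replicate difference also rose with transcript length (Spearman rho 0.41 across genes) and with G+C content (0.20), a description only, since genes are not independent and share the libraries. The transcripts of the 10 genes are long, 4884 to 14187 bases against a median of 2824, with 47.9 to 60.9% G+C against a median of 50.2%. The part of these quantities in the replicate differences was not tested. In the comparison of groups, with the length and G+C trend removed, 4 of the 10 genes passed, Lama2, Lama4, Nid1 and Nid2 (limma q from 0.00116 to 0.00660), beside 34.4% of all genes in that fit in either direction.

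With group means removed, the 10 genes were also compared with each other over the 8 libraries. Nid2 and Hspg2 had a Pearson r of 0.99, Lamb2 and Nid1 0.99, Lamb2 and Nid2 0.97 and Lama4 and Hspg2 0.90. Lama3 was closest to Agrn (0.84). Lamc1 ran against most of the others, with a mean r of -0.39, and Lama2 was nearly apart from them (mean r 0.21). These values describe 8 libraries that share the replicate split. The 5 genes most like the mean of the 10, of 7034 with a mean of at least 10 FPKM, were Lmna (r = 0.998), Tenc1 (0.99), Ciz1 (0.99), Plscr4 (0.99) and Vps52 (0.99), the first of which encodes the nuclear lamins A and C.

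The other parts of the basement membrane were then read from lists of its remaining genes, also chosen with earlier results of these data known. Across 7 lists, 48 of the 121 genes tested were higher in SMCs (39.7%, beside 11.2% of all genes tested and 19.5% of those averaging 1 FPKM or more) and 5 were higher in pericytes (4.13%, beside 10.6% of all genes tested). The count higher in pericytes was 2 with TPM scaling, 2 to 5 with 1 library left out and 6 with the length and G+C trend removed. Counts given below for low genes filtered come from a fit that called 44.8% of all its genes in either direction. Where a list below has 0 genes higher in pericytes by limma, it also has 0 at an unadjusted p below 0.05. Of 4 other laminin chains, 0 passed (limma, with 1 at an unadjusted p below 0.05 and 1 passing when low genes were filtered), with a median difference of 0.76. Lamb1, the β1 chain that replaces β2 in many vascular laminins, was at 3.85, 1.72, 8.69 and 12.9 FPKM in pericyte replicates 1 to 4 and 11.9, 14.3, 32.8 and 43.0 FPKM in SMC replicates 1 to 4. It had the replicate pattern of Lamb2 at a lower level in each library, with a difference of 1.84 (limma q = 0.0780). It passed when low genes were filtered (limma q = 0.0212), with replicates 1 and 2 against 3 and 4 as a covariate (limma q = 0.00154) and with the length and G+C trend removed (limma q = 0.0263). Lamc3 was at 7.57 and 7.91 FPKM in SMC replicates 3 and 4 and below 1 FPKM elsewhere.

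Of 10 basement membrane collagens, 2 were higher in SMCs (7 at an unadjusted p below 0.05, and 6 passing when low genes were filtered), 0 in pericytes, and the median difference was 1.91. The share of 20% is near the 19.5% of genes averaging 1 FPKM or more that passed as higher in SMCs (11.2% of all genes tested). The filtered fit called 44.8% of all its genes in either direction. Col4a1 and Col4a2, the chains of the vascular collagen IV network to which nidogens bind, were at 35.4 ± 25.1 and 14.3 ± 10.1 FPKM in pericytes and at 198 ± 156 and 84.1 ± 64.0 FPKM in SMCs (SD, n = 4). Their differences were 2.27 (limma q = 0.0807) and 2.29 (limma q = 0.0575), wide in spread like Lamb2. Both passed when low genes were filtered (limma q = 0.0205 and 0.0132), with replicates 1 and 2 against 3 and 4 as a covariate (limma q = 0.00343 and 0.00255) and with the length and G+C trend removed (limma q = 0.0239 and 0.0130). The pair that passed were Col15a1, a collagen bound to the outer face of basement membranes (2.04, limma q = 0.00312), and Col4a3 (1.79, limma q = 0.0201), the latter not without pericyte replicate 3 (1.77, limma q = 0.0527).

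Of 24 receptors for basement membrane, 10 were higher in SMCs (41.7%) and 1 in pericytes (4.17%), with a median difference of 1.07. The shares of all genes tested were 11.2% and 10.6%, and 19.5% of genes averaging 1 FPKM or more passed as higher in SMCs. Itgb1, the β subunit of the main laminin-binding integrins, was at 135 ± 55.7 FPKM in pericytes and 387 ± 61.5 FPKM in SMCs (SD, n = 4), a difference of 1.60 (limma q = 0.00908). Of its laminin-binding α partners, Itga6 (0.51, limma q = 0.0952, or 0.0396 with quantile scaling) and Itga7 (1.10, limma q = 0.288) did not pass. Neither did Dag1, the gene of dystroglycan, which binds α2, perlecan and agrin (0.92, limma q = 0.321), nor Bcam, a receptor of the α5 chain (1.81, limma q = 0.177). With replicates 1 and 2 against 3 and 4 as a covariate, Bcam passed (limma q = 0.0211) and Dag1 did not (limma q = 0.0548). Of the agrin receptors, Musk was at 4.08 ± 2.09 FPKM in pericytes and 12.7 ± 2.78 FPKM in SMCs (1.49, limma q = 0.00992). Lrp4 was at 0.398 ± 0.312 and 1.19 ± 0.439 FPKM (0.65, limma q = 0.0524). It passed with a pseudocount of 0.1 (limma q = 0.0492), TPM scaling (limma q = 0.0432) and the replicate split as a covariate (limma q = 0.0103). With 1 library left out, limma q for Lrp4 ran from 0.0246 to 0.118. With the length and G+C trend removed, its difference was 0.15 (limma q = 0.572). Among those that passed as higher in SMCs, the largest differences were in Sdc2, a heparan sulfate syndecan (3.05, limma q = 0.000813), Ddr2, a collagen receptor (2.46, limma q = 0.000689), and Cd151, a tetraspanin that binds laminin integrins (1.78, limma q = 0.00390). The 1 gene higher in pericytes was Rpsa, a ribosomal protein also described as a laminin receptor, with a difference of -2.03 (limma q = 0.00401). It has many processed copies in the genome, so its FPKM is uncertain.

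Proteins that associate with laminin and collagen IV made up the list with the most calls. Of 23 tested, 15 were higher in SMCs (65.2%, beside 11.2% of all genes tested and 19.5% of those averaging 1 FPKM or more). In pericytes 0 were higher, beside 10.6% of all genes tested, and the median difference was 1.84. Smoc2, a SPARC-related calcium-binding protein, was at 78.2 ± 40.7 FPKM in pericytes and 1073 ± 213 FPKM in SMCs (3.89, limma q = 0.000441). Fbln1 (3.42, limma q = 0.000755) and Efemp1 (3.13, limma q = 5.9e-05) encode fibulins. Of 20 proteases and inhibitors that act on basement membrane, with a median of 1.65, 12 were higher in SMCs (60%) and 1 in pericytes (5%). The proteases Mmp3 (3.80, limma q = 0.000105) and Mmp2 (3.08, limma q = 0.000711) and the inhibitor Timp1 (3.71, limma q = 0.0261) led them, and Ctss, a lysosomal protease of antigen-presenting cells, was the gene higher in pericytes (-1.60, limma q = 0.00144). Timp1 did not pass without SMC replicate 1 or 2 (limma q = 0.0673 and 0.0683) or without pericyte replicate 3 or 4 (limma q = 0.0591 and 0.0625). Fibroblast markers were higher in the same libraries as the first group of genes and leukocyte markers in the same libraries as Ctss, at the summed levels given above, and their part in these differences was not tested.

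The enzymes that modify the proteoglycans and dystroglycan were read in the same way. Of 26 genes of heparan sulfate assembly and trimming, 4 were higher in SMCs (15.4%) and 3 in pericytes (11.5%), shares near the 11.2% and 10.6% of all genes tested, with a median difference of 0.24. Sulf1, which removes 6-O-sulfate from the chains of perlecan and agrin outside the cell, was at 5.23 ± 2.85 FPKM in pericytes and 44.3 ± 8.67 FPKM in SMCs (2.95, limma q = 0.000784). Extl2 (1.42, limma q = 0.000536) and Ext1 (1.09, limma q = 0.0251), of the family that starts and extends the chains, were also higher in SMCs. Hs3st3b1 (-1.2, limma q = 0.0492), Hs6st1 (-0.62, limma q = 0.0369) and B4galt7 (-0.58, limma q = 0.0440) were higher in pericytes. Those 3 and Ext1 lost their calls in at least 6 of the 8 fits that left out 1 library, with q up to 0.121 for Hs3st3b1, 0.0944 for Hs6st1, 0.110 for B4galt7 and 0.0659 for Ext1. Of 14 genes that build the laminin-binding sugar of dystroglycan, 5 were higher in SMCs (35.7%, beside 11.2% of all genes tested and 19.5% of those averaging 1 FPKM or more) and 0 in pericytes, with a median of 0.80. When low genes were filtered, 8 passed, in a fit that called 44.8% of all its genes in either direction. B3gnt1 (2.09, limma q = 0.000808), Tmem5 (1.33, limma q = 0.00750) and Pomt2 (1.12, limma q = 0.000111) had the largest differences. Pomt2 was at 2.02 ± 0.15 FPKM in pericytes and 5.60 ± 0.56 FPKM in SMCs (SD, n = 4).

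**Figure D5:**
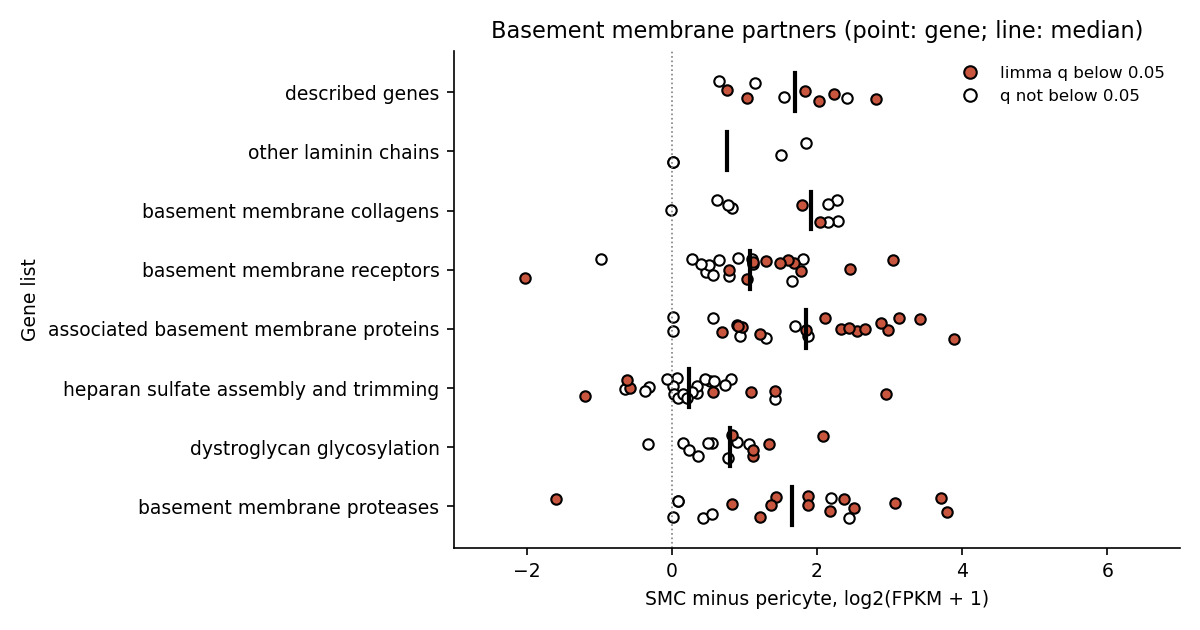
Difference between SMCs and pericytes in mean log2(FPKM + 1) for each gene of the 10 described and of 7 lists of basement membrane partners, with a vertical line at each list's median; filled points have limma q below 0.05. The medians run from 0.24 for heparan sulfate enzymes to 1.91 for basement membrane collagens, against -0.02 for all genes tested.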

How the data were processed

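Libraries were made from ultra-low input RNA with Nextera XT. The submitters' processing notes name FastQC, Bowtie2 and TopHat, and the reads were aligned to NCBI Build 37. The authors deposited FPKM for 37979 genes, neither log transformed nor filtered. The program that computed FPKM and the use of strand are not given in the sources used here. Groups and replicate numbers came from the sample titles.

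FPKM were taken as log2(FPKM + 1), and the 27414 genes not at 0 in every library were tested with limma 3.58.1 (lmFit and eBayes, R 4.3.3), with Benjamini-Hochberg adjustment. The study describes the replicates as biological, each pooled from several sorts, and the sources used here do not tie a library to named animals, so p-values measure the spread between these pools. On simulated data for 27414 genes, 75 of 100 genes changed by 2 log2 units and 94 of 100 changed by 4 were called, with 10 unchanged genes. The simulated noise was independent between libraries, with limma's own variances and no replicate split. No other genes were changed, and none at very low levels, so these rates may not hold for the real libraries. Ratios were tested by exact permutation in Python 3.11.15 (scipy 1.17.1).

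The named genes are the 10 described and 4 other laminin chains. 1 gene is not reported here. In each partner list they are the 3 with the largest difference among those past the test in each direction, and 9 direct partners whatever their value. The first gene of each marker list and the 5 genes most like the 10 were also named. The members and lists were chosen with earlier results of these data known. Alternatives were other pseudocounts, filters, scalings, blocks and left-out libraries, and, chosen after seeing the data, fits within replicates 1 and 2 or 3 and 4 and the removal of a length and G+C trend. Positions came from GENCODE for NCBI Build 37, which holds 37195 of the gene identifiers, and start regions from RefSeq.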

Additional observations from a re-analysis of the deposited data

Results flagged for a closer look

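In 124 groups of 4 libraries checked, 4 held a library far from the other 3, and chance gives about 1 in 20 groups. Lama5 was at 3.60 FPKM in pericyte replicate 2, below the other pericyte libraries. The Lama3 share of α chain FPKM was 6.07% in SMC replicate 3, above the other SMC libraries. Cd151 was at 22.9 FPKM in pericyte replicate 2 and Hs3st3b1 at 2.54 FPKM in SMC replicate 3, each above the rest of its group.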

How the results depend on the processing

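The number of the 10 genes past limma's test was 6, beside 21.8% of all genes in either direction. It was 7 with a pseudocount of 0.1 (21.2% of all genes) or quantile scaling (22.5%), 6 with TPM (21.3%) or median-ratio scaling (21.8%), and 5 with an intensity trend (20.7%, without Agrn). In fits that called another share of all genes it was 8 of the 9 genes left by a filter at 1 FPKM in 4 libraries (44.8%), 4 after removal of the length and G+C trend (34.4%), 4 within replicates 1 and 2 (10.3%), 8 within replicates 3 and 4 (25.9%), and 9 with replicates 1 and 2 against 3 and 4 as a covariate (28.2%). With 1 library left out (17.7 to 24.2% of all genes) it ran from 3 (without SMC replicate 4 or pericyte replicate 1 or 3) to 7. Lama2, Lama4 and Nid1 passed in each of these 8 fits, and all 10 differences kept their direction under each alternative that tested them (Lama3 was left out by the filter). TPM scaling moved the median of genes with at least 1 FPKM from -0.05 to 0.16, and with the length and G+C trend removed this median was -0.05. Over all 20793 genes of the fit with the trend removed the median was 0.09, beside -0.02 over the 27414 genes of the main fit. Those 2 fits differ in their genes as well as in the trend. Of the partner lists, 53 genes passed, 41 to 47 with 1 library left out and 28 within replicates 1 and 2 (limma). The number was 60 within replicates 3 and 4, 61 with the trend removed, 62 with the filter and 75 with the covariate. These fits called the shares of all genes given above. The difference in the Lama4 to Lama5 ratio was 0.60 to 1.03 with 1 library left out. In the same fits it was 0.51 to 1.06 for Hspg2 to Agrn and -0.91 to -0.27 for Lamb1 to Lamb2. It was 0.28 to 0.61 for Lama2 to Lama4 and 0.60 to 0.87 for Nid1 to Nid2. Some differences that did not pass changed sign: Lamb3 (0.01) was -0.0241 with a pseudocount of 0.1, -0.26 with the trend removed and from -0.58 (without SMC replicate 3) to 0.53 (without pericyte replicate 3) with 1 library left out. Sox10 (-0.40) was 0.0046 with a pseudocount of 0.1, 0.43 within replicates 1 and 2, -1.22 within replicates 3 and 4 (limma q = 0.0128, higher in pericytes) and from -0.95 (without pericyte replicate 2) to 0.0777 (without pericyte replicate 3). Pax7 (0.17) was -0.22 with the trend removed and from -0.12 (without pericyte replicate 3) to 0.40 (without pericyte replicate 2), Acta1 (0.13) was -0.20 within replicates 1 and 2, and Lama1 (0.02) was -0.54 with the trend removed. The causes were not tested. The depth of the libraries is unknown in reads, which leaves the precision of values under about 1 FPKM, such as Lama3 and Lrp4, unstated.

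The replicate numbers did not pair the libraries by the rule used: across 13612 genes, deviations from the group mean correlated at 0.327 on average between libraries of the same number, but at 0.0794 in 1 of the 4 pairs. In 5 of 8 libraries the closest library of the other group had the same number. With the replicate number as a block, 9 of the 10 genes passed (limma, Lamc1 apart, beside 22.4% of all genes) and 65 genes of the partner lists. In that block the paired difference of the Nid1 to Nid2 ratio was 0.78 with an exact p of 0.125, the smallest that 4 pairs allow.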

Other observations

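Markers of 3 other cell types of muscle were also read. In each list 1 gene passed: 12.5% of Schwann and perineurial, 16.7% of satellite cell and 12.5% of muscle fibre markers. Of all genes tested, 11.2% passed as higher in SMCs and 10.6% as higher in pericytes, so these shares are near those of all genes. Of 8 Schwann and perineurial markers, 1 passed the test (Ngfr, higher in SMCs, with 3 higher in SMCs at an unadjusted p below 0.05), with summed levels of 155 to 731 FPKM in pericyte libraries and 142 to 429 FPKM in SMC libraries, and Sox10 differed by -0.40 (limma q = 0.785). Of 6 satellite cell markers, 1 passed (Vcam1, higher in SMCs), and the summed level was 19.1 to 103 FPKM in pericyte libraries and 228 to 320 FPKM in SMC libraries, without overlap, of which Vcam1 made up 165 to 270 FPKM in SMCs. Pax7 differed by 0.17 (limma q = 0.815). Of 8 muscle fibre markers, 1 passed (Mylpf, higher in pericytes), with 26.5 to 31.9 FPKM against 22.2 to 35.1 FPKM, and Acta1 differed by 0.13 (limma q = 0.724). At an unadjusted p below 0.05 (limma), 1 muscle fibre marker was higher in each group, and 2 passed when low genes were filtered. The median difference of the list was 0.10. Ngfr, Vcam1 and Mylpf were named after their values were seen.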
